A study of Jaculus jaculus with 13 samples.

Results

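In the kidney of the Lesser Egyptian Jerboa (Jaculus jaculus), 275 of the 24433 genes of the count table had a low level after rehydration while their level after dehydration lay close to that of the controls. These genes were chosen by their measured values. A gene was a member when its mean count was 20 or more, when every rehydrated animal had a lower CPM (counts scaled to a total of 1000000 per animal) than every control and every dehydrated animal, when the mean CPM after dehydration was 0.85 to 1.15 times the control mean, and when the mean CPM after rehydration was at most 0.6 times the control mean. Genes that the study names by symbol were left out, which removed 1 gene (TGFBR3, an accessory receptor of the TGF-beta family). For a few genes that the study names without an identifier (SMAD1, SMAD2, SMAD3, SMAD4 and EEF1A1) this was not checked.

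Whole left kidneys of 13 male Jerboas were sequenced after polyA selection, 1 animal per library. The 4 controls (CM) had free access to water, the 4 dehydrated animals (DHM) had their water withheld, for 11 days by the labels, and the 5 rehydrated animals (RHM) had it withheld for 7 days and then returned for 3 days. The durations in the study's methods differ from those in the labels. All animals were adults caught in the wild, single housed and fed dry pellets throughout, so that what they drank before the study is not known. The tissue is bulk kidney, in which fewer cells of a type and less RNA per cell cannot be told apart.

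The mammalian kidney filters plasma and then takes most of the filtrate back across tubule cells, whose apical membrane faces the tubule and carries solute transporters, channels and water channels. During water shortage the hormone vasopressin brings the water channel AQP2 to the apical membrane of the collecting duct, and when water can be drunk again this is withdrawn and the excess water is excreted. AQP1 is the water channel of the proximal tubule and descending limb. As a check of the tissue, AQP1 lay between 327 and 1069 CPM and AQP2 between 98.7 and 797 CPM over the 13 animals. The levels of these and other tubule genes moved between groups, and not in 1 direction. The mean of AQP1 was 744 CPM in CM, 942 in DHM and 489.8 in RHM. That of SCNN1A, a subunit of the sodium channel of the distal nephron, was 218, 292 and 381 CPM. In the same order AQP2 had means of 219, 638 and 189 CPM and AQP3 of 64.6, 221 and 68.2 CPM, both near the control level in RHM. The solute carrier SLC17A3 was above its control mean in RHM, at 175, 257 and 208 CPM. The part of a changed share of tubule cells in the members' levels was not tested. The deposited table names genes by Ensembl identifier alone and does not pair them with symbols, so the members are described by their values, their place in the JacJac1.0 assembly and, for 7 of them, the gene ontology terms under which the study's supplement prints their identifiers.

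Depth was lower after rehydration, with 14071802 to 19267059 assigned counts per animal against 18648494 to 19944214 after dehydration and 19801654 to 22949762 in controls. The study states, among its limitations, that RNA integrity, high in all samples, was lower in the rehydrated group. It adds that the samples clustered by group in a principal component plot. From this the study proposes that integrity was not a main driver of the group differences. Animals of the same group differed beyond what counting alone gives, in all 22 pairs (chi-square per degree of freedom 29.9 to 86.8). Genes that the study's supplement prints under immune terms (254 genes) summed to 17608 CPM in CM01 and 13169 CPM in RHM01, against 2090 to 6333 CPM in the other 11 animals, and values without these 2 animals are given where they move a result.

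The median member stood at 37.7% of its control mean in RHM01, 67.2% in RHM02, 52.9% in RHM04, 53.1% in RHM07 and 52.2% in RHM08. In the dehydrated animals it stood at 97.2% (DHM02), 88.0% (DHM03), 91.6% (DHM05) and 86.4% (DHM06), and in the 4 controls between 98.1% and 101.2%. The rule fixes the separation of the rehydrated animals from the rest, and these levels are a description of it. The rule set no order among the rehydrated animals, but its limit on their mean favours genes that are very low in 1 of them. With RHM01 set aside, 199 of the 275 members still had a ratio of 0.6 or less. Most members shared an order, which the choice can thus have raised in part. RHM01 was the lowest rehydrated animal in 222 of the 275 members and RHM02 the highest in 200. Over all 13828 genes with a mean count of 20 or more, RHM01 was the lowest in 34.8% and RHM02 the highest in 30.0%. The order was shared with the 643 genes that met the same limits for rehydration but were also lower after dehydration (median RHM to CM ratio 0.425), in which RHM01 was the lowest in 79.3% and RHM02 the highest in 75.4%. These genes passed the same limit on the mean, so they are not free of the choice either. When each animal was read in genes chosen without it, RHM01 had the lowest median ratio to the control mean (0.362) of the rehydrated animals. RHM02 had the highest (0.723).

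**Figure D1:**
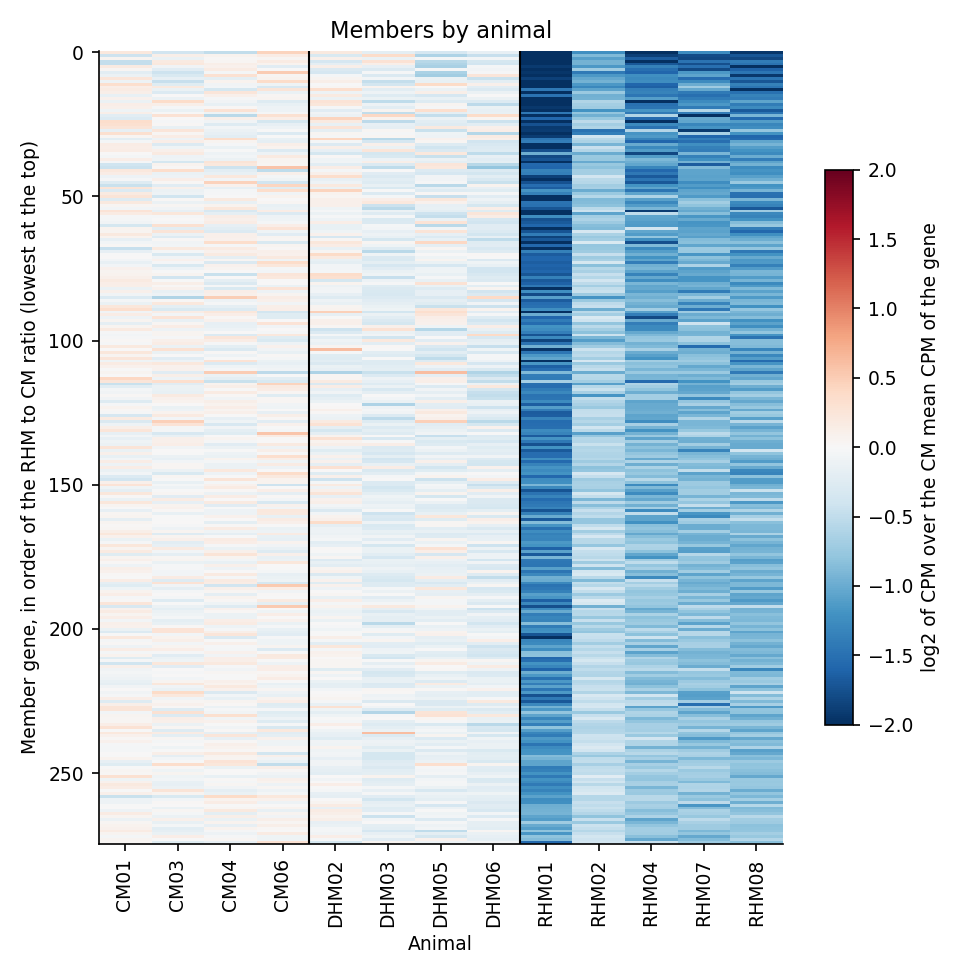
Each of the 275 members (rows, lowest RHM to CM ratio at the top) in each of the 13 animals (columns), as the log2 of its CPM over the control mean of that gene. The 5 rehydrated columns are blue throughout, RHM01 the darkest and RHM02 the palest, while the 4 dehydrated columns are pale, with a faint blue in most rows.

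As a share of all assigned counts, the members summed to 2.09% ± 0.0680 (SD, n = 4) in controls, 1.95% ± 0.0936 (SD, n = 4) after dehydration and 1.09% ± 0.217 (SD, n = 5) after rehydration. In the rehydrated animals the share was 0.743% in RHM01, 1.34% in RHM02, 1.14% in RHM04, 1.14% in RHM07 and 1.07% in RHM08, all of them below the lowest dehydrated animal at 1.87%. The sum leaned on its most expressed genes: the 10 members with the most CPM per kilobase of exon in controls held 31.9% of the member counts in controls, 32.6% after dehydration and 31.1% after rehydration. The first of these alone held 6.79%, 6.61% and 4.70% in the same order.

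The size of the fall varied about 2-fold among members. The RHM to CM ratio of mean CPM ran from 0.289 to 0.599943, just inside the limit, with a median of 0.537, and the first gene outside that limit stood at 0.600134. A total of 18 members had a ratio of 0.4 or less, 68 had a ratio over 0.4 to 0.5, and 189 had a ratio over 0.5. The 18 members that fell furthest had a median of 11.2 CPM per kilobase in controls, against 20.3 for the 189 that fell least. They varied more among the rehydrated animals (median coefficient of variation 32.7% against 21.2%) and also among the controls (17.5% against 9.79%). With RHM01 set aside the median ratio was 0.569, and 199 of the 275 members still had a ratio of 0.6 or less. With RHM02 set aside it was 0.503 (274 members), and with CM01 set aside 0.531 (256 members).

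The gap between the groups was narrow for most members. The lowest control or dehydrated animal stood at 1.00162 to 1.93 times the highest rehydrated animal (median 1.149), so that only 9 members had a gap of 1.5-fold or more and 0 had a gap of 2-fold. The first gene outside this limit had a ratio of 0.999619. Spread within groups was wider after rehydration than in the others. The median coefficient of variation of the members was 11.0% in controls, 10.5% after dehydration and 23.0% after rehydration, while over all genes with a mean count of 20 or more it was 13.4%, 12.5% and 17.2%. No member had fewer than 3 counts in any animal, and member mean counts ran from 26.2 to 20306.5, so that the minimum of 20 set no member's fate (the first gene outside it had a mean of 17.8).

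**Figure D2:**
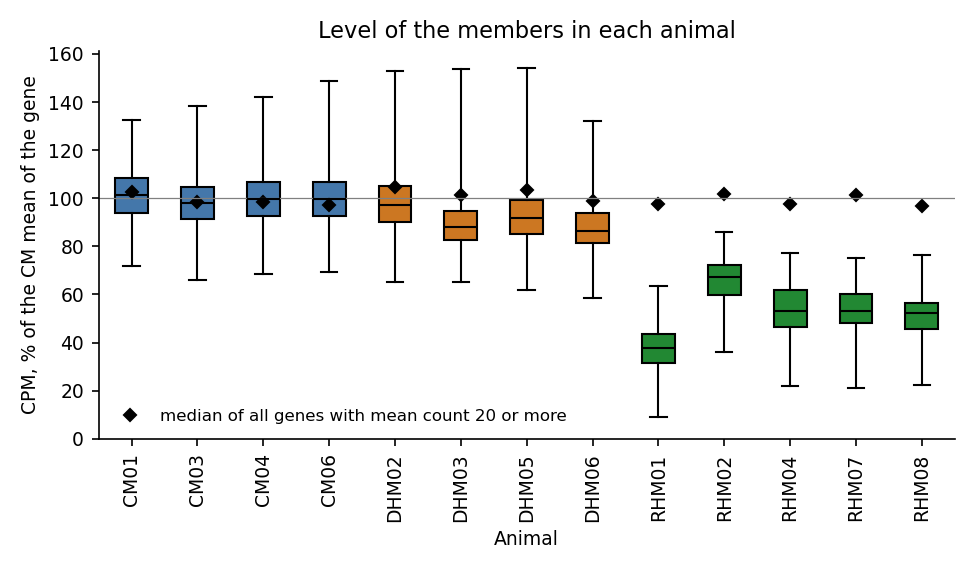
CPM of the 275 members in each animal as a percentage of the control mean of the gene. Boxes give the quartiles and the median, whiskers run from the lowest to the highest member, and diamonds give the median of all genes with a mean count of 20 or more. The diamonds stay between 97.0% and 104.8% in all 13 animals, while the boxes of the 5 rehydrated animals lie between 31.6% and 72.3%.

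Although the rule allows the dehydrated mean to lie on either side of the control mean, most members lay below it. The mean after dehydration was under the control mean in 241 of the 275 members and over it in 34, and the median DHM to CM ratio was 0.912. Over all 13828 genes with a mean count of 20 or more, 44.0% had a dehydrated mean under the control mean and the median ratio was 1.03. The fitted log2 fold change was negative for 256 members with TMM scaling and for 260 in DESeq2. These fits used the same animals and counts as the choice, so that they are no separate evidence for a lower level. The highest DHM to CM ratio of a member was 1.095, well inside the limit of 1.15, and the first gene outside that limit had a ratio of 1.16. At the other limit the members piled up, with 0.850009 just inside and 0.849338 just outside.

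At its lower side the range of DHM to CM ratios went on without a break. Of all 944 genes that met the count and rehydration parts of the rule, 276 lay within the range allowed for dehydration, 647 lay under it and 21 over it. Those with a DHM to CM ratio over 0.8 and up to 0.85 numbered 158, those over 0.85 and up to 0.9 numbered 114, those over 0.9 and up to 0.95 numbered 89, and those over 0.95 and up to 1 numbered 39. From 1 upward the counts were 20 up to 1.05, 14 up to 1.1, 0 up to 1.15, 8 up to 1.2 and 13 beyond. By these counts, the description "lower after rehydration only" holds for the rule, whereas the mean of most members was slightly lower after dehydration as well. The controls in this ratio also served to choose the members, and the limit on the RHM to CM ratio favours genes with a high control mean. These counts therefore only describe the members, and a change after dehydration was not tested by them. The groups CM and DHM overlapped in all but 16 of the members, in which every dehydrated animal was below every control. That is 5.82% of the members, against 8.43% of all genes with a mean count of 20 or more, and the rule caps the size of this difference.

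**Figure D3:**
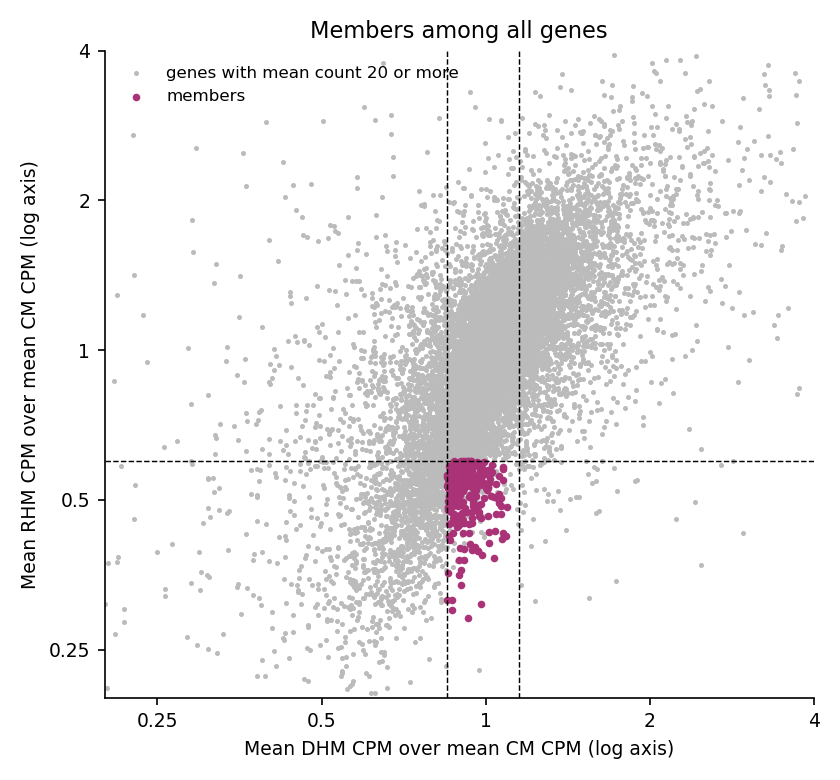
Mean CPM after dehydration (horizontal) and after rehydration (vertical), each divided by the control mean, on log axes, for genes with a mean count of 20 or more; points outside the range shown are left out. Dashed lines mark the limits of the rule, and the 275 members lie in the lower part of a cloud of genes that extends without a break to lower DHM to CM ratios.

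In edgeR's quasi-likelihood fit over all 13 animals and 15064 genes, 267 of the 275 members were called lower in RHM compared to CM at an adjusted p-value under 0.01, where 16.2% of all tested genes were called lower. Compared to DHM, 182 members were called lower, against 5.5% of all tested genes. This count moved with that over all tested genes. It was 52 when only these 2 groups were fitted (199 of all tested genes, from 829), and 67 (without DHM02; 265 of all) to 226 (without RHM02; 1403 of all) when 1 animal was left out. The rule used these contrasts, so the counts only describe the members. All 182 were among the 267, 85 were called in the comparison with CM alone and 8 in neither. The median member log2 fold change was −0.91 compared to CM and −0.76 compared to DHM, while the medians of all tested genes were 0.03 and −0.00415. DESeq2 called 275 members lower compared to CM and 260 compared to DHM, where it called 19.2% and 10.2% of all tested genes lower. For DHM compared to CM, 0 members were called, with 0.478% of all tested genes called in either direction. The unadjusted p-value was under 0.05 in 10 members, all lower, and in 3653 of the 15064 tested genes, and DESeq2 also called 0 members (23 at an unadjusted p-value under 0.05; it called 6.3% of all tested genes). The median member log2 fold change in this comparison was −0.18.

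Expression values that the choice did not use can be had only from an animal left out of it. The rule was therefore applied to 12 animals at a time, and the genes it chose were read in the 13th. In RHM01, 98.0% of the 205 genes chosen without it were below every control and dehydrated animal, where 34.5% of all genes with a mean count of 20 or more were. In RHM04 this was 95.7% of 299 genes, in RHM07 93.6% of 297 and in RHM08 97.8% of 269, with 25.9% to 30.0% of all genes. RHM02 stood apart, with 72.8% of 463 genes, against 18.2% of all genes. The median left-out ratio to the control mean was 0.362 in RHM01, 0.554 in RHM04, 0.550 in RHM07, 0.524 in RHM08 and 0.723 in RHM02, while the other rehydrated animals, which were used in the choice, had medians of 0.528 to 0.534.

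The same reading in the other groups asked whether the animal left out was above every rehydrated animal. This held for 96.4% to 97.3% of the genes chosen when a control was left out, against 28.7% to 34.6% of all genes. The animals that set this bar, like those that set it for the rehydrated animals, were used in the choice, which raises these shares over those of all genes. It held for 88.3% to 97.2% when a dehydrated animal was left out, the lowest being DHM06, against 25.9% to 34.3% of all genes. The left-out dehydrated animal stood at a median of 0.950 (DHM02), 0.849 (DHM03), 0.891 (DHM05) and 0.823 (DHM06) of the control mean. The control mean in these ratios, unlike the animal left out, was used in the choice. The medians of all genes in the same animals were 0.987 to 1.047.

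**Figure D4:**
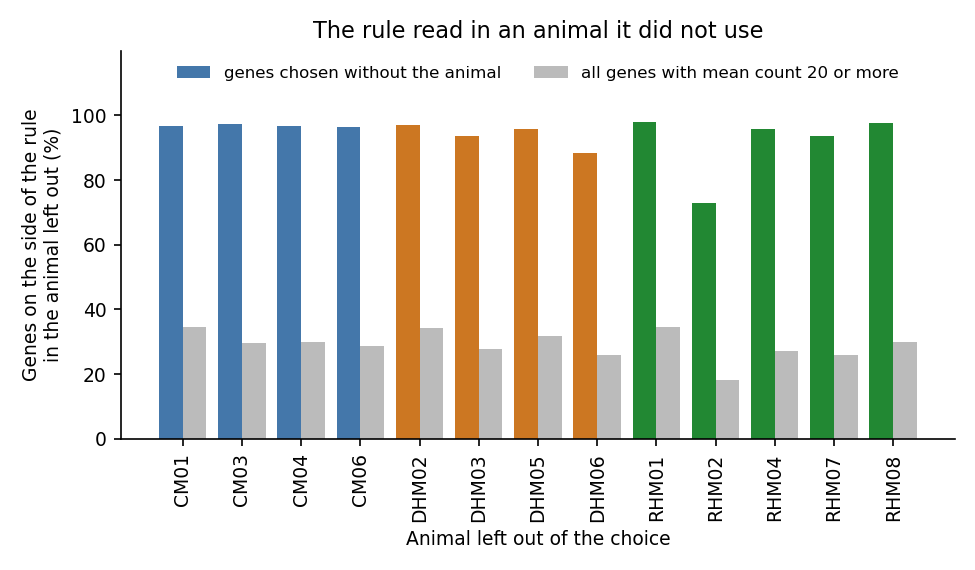
For each animal left out of the choice, the percentage of the genes chosen in the other 12 that fell on the side asked for by the rule (coloured bars; blue CM, orange DHM, green RHM), beside the same percentage over all genes with a mean count of 20 or more (grey). The side is below every control and dehydrated animal for RHM, and above every rehydrated animal for CM and DHM. RHM02 has the lowest coloured bar at 72.8%.

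The member with the lowest ratio was ENSJJAG00000022893 (scaffold JH725443.1 from 8553854 to 8600715, plus strand, 15 exons). Its levels in the controls CM01, CM03, CM04 and CM06 were 340.0, 227, 209 and 402 CPM. In DHM02, DHM03, DHM05 and DHM06 they were 338.8, 257.6, 234.2 and 262.9 CPM. In RHM01, RHM02, RHM04, RHM07 and RHM08 they were 35.8, 126, 64.6, 123 and 76.1 CPM. The highest rehydrated animal was thus well under the lowest control, and RHM01 was more than 3-fold lower than RHM02. The log2 fold change was −1.81 (standard error 0.31) compared to CM and −1.66 (standard error 0.31) compared to DHM.

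The member with the most counts, ENSJJAG00000023296 (JH725440.1 from 32971236 to 32991770, plus strand, 7 exons), is printed in the study's supplement under cell-cell adhesion, the process by which tubule cells hold on to each other. It had 914 CPM per kilobase of exon in controls, the highest of all members, where the median member had 17.3. Its levels were 1317, 1151, 1762 and 1472 CPM in the controls and 1394, 1163, 879 and 1692 CPM after dehydration, and these ranges overlap. After rehydration they were 263, 641, 608, 684 and 375 CPM, in the order of RHM01, RHM02, RHM04, RHM07 and RHM08. The log2 fold change was −1.49 (standard error 0.27) compared to CM and −1.29 (standard error 0.27) compared to DHM.

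The supplement prints 2 members under apical plasma membrane, the surface on which tubule cells meet the filtrate. The first, at JH725440.1 from 7274595 to 7301227 (minus strand, 12 exons), is also listed under transmembrane transporter activity. It stood at 837, 762, 594 and 711 CPM in the controls and at 784, 699, 639 and 699 CPM after dehydration. After rehydration it was at 178, 526, 546, 409 and 387 CPM, where RHM01 lay far below the other 4. Its log2 fold change compared to CM was −0.84 (standard error 0.24), and −0.59 without CM01 and RHM01. Compared to DHM it was −0.75 (standard error 0.24) and −0.56 without these 2 animals. Its call turned on the tool, the filter and the animals: edgeR with all animals called it in neither comparison, or compared to CM alone where genes needed a mean count of 20, edgeR without these 2 animals called it compared to CM alone, and DESeq2 with all animals called it lower in both.

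This transporter gene had the fifth highest level per kilobase of exon among the members, 427 CPM per kilobase in controls. The annotated gene at the next higher position on the scaffold, 15393 bases away on the same strand (JH725440.1 from 7316621 to 7448556, 53 exons), was a member too, with 307 ± 28.8 CPM in controls (SD, n = 4), 279 ± 10.2 CPM after dehydration (SD, n = 4) and 184 ± 31.2 CPM after rehydration (SD, n = 5). Its ratio of 0.599531 lay just inside the limit of 0.6.

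The second apical member, at JH725443.1 from 31128431 to 31283248 (plus strand, 27 exons), was among the 34 whose mean after dehydration lay slightly above the control mean. Its levels were 17.8, 19.04, 15.6 and 16.3 CPM in the controls, 17.7, 18.5, 16.3 and 18.9 CPM after dehydration, and 7.54, 11.9, 7.15, 9.74 and 7.32 CPM after rehydration. Its highest rehydrated animal was RHM02 and its lowest RHM04. The log2 fold change was −0.99 (standard error 0.14) compared to CM and −1.004 (standard error 0.14) compared to DHM, so that the fall was of the same size from either group.

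A member listed under kinase activity, protein phosphorylation and signal transduction lay at JH725437.1 from 42994562 to 43150428 (plus strand, 17 exons). Kinases pass on signals by adding phosphate to other proteins. It was at 28.0, 29.6, 30.6 and 22.5 CPM in the controls, 26.2, 31.9, 23.7 and 24.5 CPM after dehydration and 7.72, 12.9, 16.6, 17.98 and 15.4 CPM after rehydration. RHM01 was again the lowest, well below RHM04, RHM07 and RHM08. Its log2 fold change was −0.98 (standard error 0.20) compared to CM and −0.88 (standard error 0.20) compared to DHM.

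Another 3 members were printed under terms for the cell surface and for shape and development. The first, at JH725437.1 from 62194850 to 62288468 (plasma membrane, 21 exons), was at 80.0 ± 9.09 CPM in controls (SD, n = 4), 77.6 ± 7.42 CPM after dehydration (SD, n = 4) and 47.1 ± 9.99 CPM after rehydration (SD, n = 5). The next, at JH725437.1 from 26355239 to 26402843 (anatomical structure morphogenesis, 18 exons), was at 33.7 ± 4.50, 31.5 ± 2.72 and 18.8 ± 4.87 CPM in the same order, and its highest rehydrated animal (RHM02, 26.4 CPM) nearly reached its lowest dehydrated one (DHM06, 27.4 CPM). The last, at JH725440.1 from 5495906 to 6641929 (cell morphogenesis, 10 exons), was at 9.63 ± 1.06, 9.23 ± 0.835 and 5.09 ± 0.915 CPM.

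**Figure D5:**
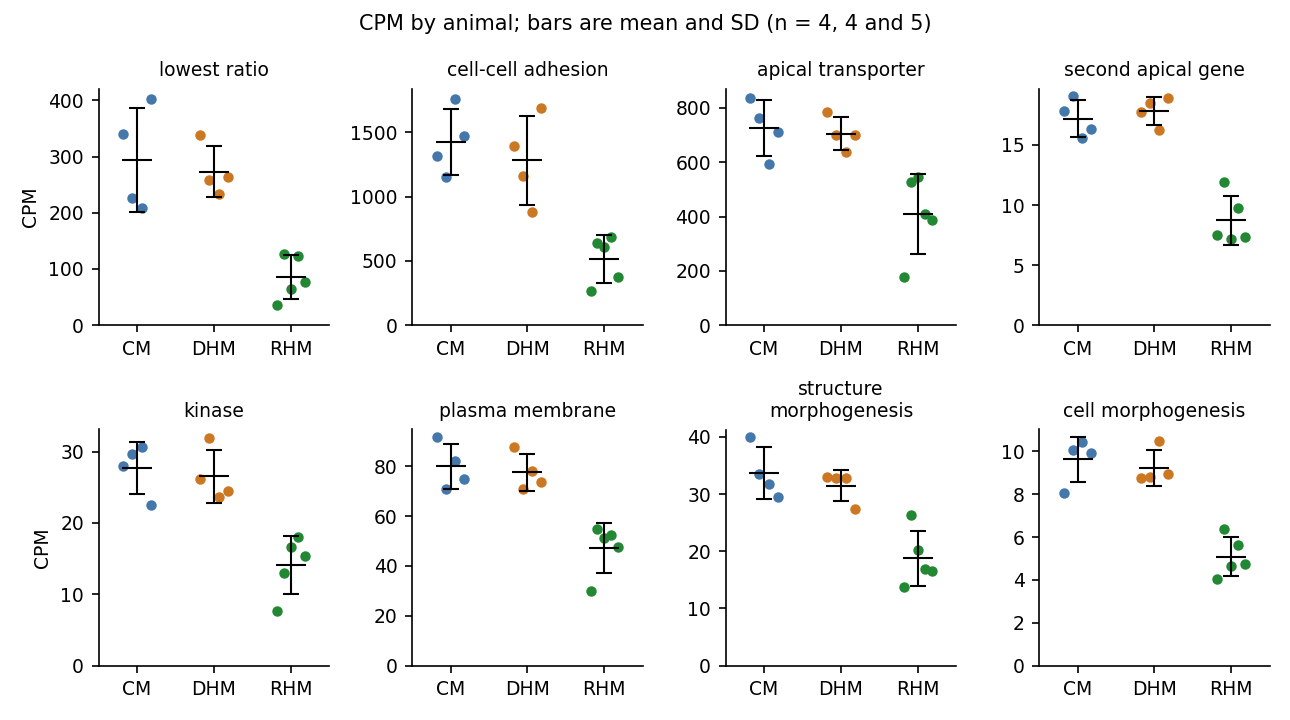
CPM in every animal for the 8 members described one by one, with the mean and SD of each group (4 CM, 4 DHM and 5 RHM animals). Panels are named by the printed gene ontology term, except the member with the lowest ratio, which has none. In each panel the 5 rehydrated animals lie under the 8 others, as the rule requires, and the lowest point is RHM01 in 7 of the 8 panels.

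The supplement prints 21 tested genes for each of the 24 terms that hold a member, and the 1 or 2 members of a term are included in its counts here. They come from a shortened list of a module that was built on these same animals and that separates the rehydrated group, so the direction is no independent evidence. Of the 21 genes for apical plasma membrane, 10 were called lower in RHM compared to CM and 5 compared to DHM, with median log2 fold changes of −0.73 and −0.62. Of the 21 for transmembrane transporter activity, 7 were called lower compared to CM and 1 compared to DHM (medians −0.55 and −0.34), and of the 21 for kinase activity 10 and 3 (medians −0.48 and −0.41). Over all 24 terms, 7 to 12 of the 21 genes were called lower compared to CM by edgeR's quasi-likelihood test, where 16.2% of all tested genes were, and 1 to 5 compared to DHM, where 5.5% were. Between DHM and CM, where few genes were called in all (0.478%), the median log2 fold change of a term was −0.47 to −0.09.

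Among the 10 members with the most CPM per kilobase of exon in controls, the RHM to CM ratio ran from 0.361 (the adhesion gene) to 0.588. After the adhesion gene, the next in this order were at JH725500.1 from 8024851 to 8026164 (789 CPM per kilobase), JH725575.1 from 3081090 to 3127207 (602) and JH725464.1 from 26395946 to 26397536 (434). Their mean levels went from 1004 ± 95.4 to 549 ± 157 CPM, from 612 ± 53.9 to 327 ± 79.8 CPM and from 502 ± 43.7 to 272 ± 82.6 CPM between controls (SD, n = 4) and rehydration (SD, n = 5). Their ratios of 0.546, 0.534 and 0.541 were all close to the median member. The 69 members in the top 25% by CPM per kilobase had a median ratio of 0.543, and the 68 in the bottom 25% one of 0.509.

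By the median, the members had more exon bases than all genes, although members were found at every length. The median exon length, merged over transcripts, was 1770 bases, against 1349 bases for all genes with a mean count of 20 or more, and the median number of merged exons was 10 against 8. Of the 275 members, 101 lay in the longest 25% of genes (over 2216 bases) and 41 in the shortest 25% (up to 789 bases). A total of 24.0% had 20 or more exons, against 13.2% of all genes. The same lengths were seen in the 643 genes not named by the study that met the rest of the rule but had a lower level after dehydration (median 1792 bases and 10 exons), so that the members shared their length with these genes. The 44 genes of the mirrored rule, higher after rehydration by at least 1.67-fold, had a median of 1156.5 bases and 5 exons.

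Length moved with the rehydrated group over the whole transcriptome. The median gene of the longest 25% stood at 0.918 times its control mean after rehydration and that of the shortest 25% at 1.13 times, whereas after dehydration these were 1.011 and 1.053. By animal, the longest 25% was at 86.1% of the control mean in RHM01, 96.1% in RHM02, 89.4% in RHM04, 92.6% in RHM07 and 87.0% in RHM08, the order of the extremes being that of the members. In the other 8 animals it was at 95.9% (DHM06) to 105.1% (DHM02), a range that holds RHM02. The share of mitochondrial counts was 16.4% in RHM01, 13.1% in RHM02, 12.2% in RHM04, 12.9% in RHM07 and 15.4% in RHM08, against 9.41% to 12.5% in the other 8 animals. The part of RNA integrity in the members' levels was not tested, since no integrity value entered a fit. That of gene length was not tested beyond an offset. With a trend over gene length removed per animal, 268 members were called lower compared to CM (2263 of all tested genes, from 2444) and 129 compared to DHM (494 of all, from 829), and the rule itself found 159 genes, 135 of them members.

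The members were spread over the genome. They lay on 117 of the 293 scaffolds that hold a gene with a mean count of 20 or more, with at most 9 on 1 scaffold (of 199 such genes there), and 140 were on the plus strand. In 5 places 2 members were next to each other among annotated genes, the transporter gene and its neighbour being one of them, and none of these pairs shared exon bases. The distance within the other 4 pairs was 23978 to 550932 bases. How many such pairs genes at large would give was not worked out, so the pairs are only a description. Reads were counted without regard to strand, and 6 members shared exon bases with another gene, 2.18% of the members against 2.27% of all genes with a mean count of 20 or more, so that their counts are less certain. None of the 8 members described one by one was among them.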

How the data were processed

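Kidney RNA of 13 male Jerboas (4 CM, 4 DHM, 5 RHM) was analysed, 1 animal per replicate. The authors trimmed the reads and assigned them to JacJac1.0 genes with featureCounts (Subread 1.6.2, no strand setting, per the file headers), and deposited raw counts per gene. No label matches another 2 columns of counts, which were left aside. From the counts CPM was computed over column totals, and the rule was applied in Python 3.11.15 (numpy 2.4.6, pandas 2.3.3). The members and lists were chosen with earlier results of these data known. Counts of genes with a mean of at least 8 (15064 genes) were scaled by TMM and fitted for the 3 groups together with edgeR 4.0.16 in R 4.3.3, with Benjamini-Hochberg adjustment over all of them and calls at 0.01. DESeq2 1.42.0 was an alternative, as were other scaling, count filters, pairs of groups, animals left out, a block for the animal number, and an offset for gene length (smoothing span 0.3). Fits were tested on simulated data. Genes were to be named by symbol, but the reference gene table of 35105 genes holds 0 Ensembl identifiers. The 25 gene lists, 26 symbol families and promoter motifs set beforehand were therefore not applied, no sequence is given, and the 8 members described, with those by rank, were chosen after their values were seen. Gene ontology terms were read from shortened lists. Depth was 14071802 to 22949762 counts, and 3 counts correspond to 0.131 to 0.213 CPM.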

Additional observations from a re-analysis of the deposited data

Results flagged for a closer look

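In groups of 4 or 5 animals, the gap of the highest or lowest animal to its nearest neighbour was compared with the whole range of the group by Dixon's critical value, for 15 measures in 3 groups. Of these 45 groups, 7 held an animal that stood apart. Chance gives about 1 in 20 for a single group, but the measures overlap and share animals, so the 7 are only a count. The genes of the immune terms come from a module that the study built on these same animals. The study names CM01 and RHM01 as drivers of that module, so their flags in this measure are no independent result. The summed level of the genes printed under immune terms was 17608 CPM in CM01 and 13169 CPM in RHM01, each far above the rest of its group. The shortest 25% of genes stood at a median of 114% of the control mean in RHM01 and at 101.6% in DHM06, the highest and the lowest of their groups.

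Among the members described one by one, the plasma membrane gene was at 29.8 CPM in RHM01, far below the other rehydrated animals. The gene listed under anatomical structure morphogenesis was at 27.4 CPM in DHM06, below the other dehydrated animals. The gene listed under cell morphogenesis was at 10.5 CPM in DHM05, above the other dehydrated animals.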

How the results depend on the processing

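The rule found 192 to 278 genes under other scalings and count minimums, and with CM01 and RHM01 left out it found 229, of which 171 were members. With CPM corrected for gene length, chosen after seeing the data, it found 159. Leaving out 1 animal at a time gave 205 genes (without RHM01) to 463 (without RHM02). Members called lower in RHM compared to CM stayed between 248 and 275 under all alternatives but the block for the animal number. Of all tested genes, 2444 were called in the main fit. This was 2025 when only the 2 groups were fitted (248 members) and 2894 in DESeq2 (275 members). Those called compared to DHM fell from 182 to 52 when only the 2 groups were fitted, where 199 of all tested genes were called, from 829. They ranged from 67 (without DHM02) to 226 (without RHM02) when 1 animal was left out. They were 73 without RHM08, 76 without DHM06, 82 without DHM05, 99 without DHM03, 105 without RHM07 and 109 without RHM04. Counts over all tested genes moved as well, as given above for DHM02 and RHM02, so these counts show no change particular to the members. With CM01 and RHM01 left out, 146 members were called lower compared to DHM (591 of all tested genes). The gene listed under anatomical structure morphogenesis then lost its call compared to DHM (log2 fold change −0.62, from −0.71, edgeR adjusted p-value 0.0105). The median log2 fold change compared to DHM was −0.66 with CM01 and RHM01 left out and −0.66 with the offset for gene length. With 1 animal left out it ranged from −0.85 to −0.64, and compared to CM from −1.02 to −0.83.

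The labels number the animals without saying that a number pairs them, and same-numbered animals of different groups had correlations of deviations between −0.02 and 0.34 (5 pairs, mean 0.12; −0.01 over the 51 other pairs). With the animal number as a block, edgeR called 91 members lower compared to CM (764 of all tested genes). Compared to DHM it called 0 members (230 at an unadjusted p-value under 0.05) and 0 of all tested genes lower. DHM05, RHM07 and RHM08 share their number with no other animal, so under the block they did not bear on the group differences. Between RHM and DHM only RHM02 and DHM02 share a number. Calls lost under the block can thus stem from the loss of these animals and of power, and no conclusion is drawn from them. The median member log2 fold change under the block was −0.71 for RHM compared to DHM, close to the −0.76 without it. It was −1.02 for RHM compared to CM and −0.30 for DHM compared to CM. Of 352 values of the 8 described members under alternatives, 0 changed direction, 58 lost the call (53 of them compared to DHM, and all 5 compared to CM under the block) and 7 gained it. No member was below 3 counts in any animal.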
